A study of Homo sapiens with 36 samples.

Results

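Antisense RNAs are transcripts made from the DNA strand opposite to a named gene, and were measured here in cultured human neural stem cells (hNSC, a commercial neural stem cell line). The members were selected on measured values: every gene symbol ending in -AS and 1 digit was taken that had at least 360 counts summed over the 36 libraries and whose name without that ending was also a symbol in the count table. The rule gave 178 antisense RNAs of 28516 symbols, out of 487 symbols with such an ending, and their 178 sense genes serve only as reference. All libraries were poly-A RNA-seq of hNSC harvested 48 h after lentiviral infection, in 6 groups of 6. MEIS1-OE and MEIS2-OE cells received a CRISPR-activation system (dCas9-VP64 with the MS2-p65-HSF1 activators) and a guide to MEIS1 or MEIS2, and ctrl-OE cells the same system with a non-targeting guide. MEIS1-KO and MEIS2-KO cells received lentiCRISPRv2 with Cas9 and a 1:1 mixture of 2 guides to MEIS1 or MEIS2, and ctrl-KO cells non-targeting guides in that vector. The KO cultures are mixed pools and not clones, and no source used here states that the 6 libraries of a group came from separate cultures, so that p-values measure the spread between these libraries.

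Antisense RNAs are often long non-coding RNAs. Many start beside the promoter of their sense gene and run away from it, since promoters can be transcribed in both directions, and others run through the body or the 3′ end of the sense gene. Some are known to act on the sense gene, on chromatin or as sponges for miRNAs, while for many no role is established. MEIS1 and MEIS2 are homeodomain transcription factors of the TALE class that act in limb, heart and brain development.

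Libraries held between 15429985 and 22940493 counts on genes. MEIS1 was at 15.7 to 18.8 CPM (the usual count scaled to library size, here with TMM factors) in ctrl-OE and 287 to 323 in MEIS1-OE, and at 23.7 to 28.01 in ctrl-KO and 6.43 to 11.2 in MEIS1-KO. MEIS2 was at 20.5 to 24.1 CPM in ctrl-OE and 793 to 852 in MEIS2-OE, and at 23.5 to 27.4 in ctrl-KO and 10.5 to 13.4 in MEIS2-KO. Of the stem cell markers, NES (median over libraries 1252 CPM), SOX2 (193 CPM), SOX1 (62.9 CPM) and PAX6 (23.7 CPM) were present, whereas HES5 was at a median of 0.196 CPM. Markers of other cell types were mixed: RBFOX3 (0 CPM), GFAP (0.149 CPM), MBP (0.163 CPM) and PTPRC (0 CPM) were at or near 0, and GAP43 (18.1 CPM) and SLC1A3 (13.9 CPM) were not. Of the pluripotent markers LIN28A was at 381 CPM and POU5F1 and NANOG at 0.0949 and 0 CPM, and of the mesenchymal ones COL3A1 was at 366, COL1A1 at 52.4, LUM at 5.64 and DCN at 0.187 CPM. The normalisation factors (TMM) were 1.02 to 1.08 in OE and 0.934 to 0.976 in KO libraries and did not overlap.

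The threshold fell among weakly covered genes. ASH1L-AS1 with 362 counts and ZEB2-AS1 with 368 lay just inside it, and ZNF571-AS1 with 338 and JMJD1C-AS1 with 334 just outside. A total over all groups does not require a gene to differ between them, and 0 members had the greater part of their counts in 1 group, although 21 had under 60 counts in the group of 6 libraries where they were lowest. Beside the members stood 141 antisense candidates with at least 10 and under 360 counts and 156 with fewer than 10.

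Positions could be given for 173 members, 131 by the same symbol and 42 through a RefSeq synonym, in the GENCODE annotation on GRCh37 (hg19). All 173 lay on the strand opposite to their sense gene. The largest class was head-to-head, with the nearest annotated start sites at most 1000 bp apart and transcription running apart or across each other from there, with 124 members. A further 31 were tail-to-tail, overlapping only at the 3′ ends, 16 lay inside or across the sense gene and 2 lay apart. The distance between the nearest start sites had a median of 169 bp, and 94 pairs were within 200 bp. A median of 6.18% of a member's exon bases lay under exons of any gene on the opposite strand (range 0 to 77.2%), and 46 members had no such base. The library kit keeps strand, but the strand setting of the counting is not given in the sources used here, so reads from overlapping exons may have been counted for either gene or for neither.

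The antisense RNAs were scarce. Their mean level over all libraries had a median of 2.83 CPM (0.482 to 259.5), against 36.4 CPM for the sense genes, and together they took 0.123 to 0.152% of a library's counts. Per kilobase of exon the median was 0.675 CPM per kb for the antisense RNAs and 5.78 for the sense genes, and the ratio within a pair had a median of 0.131. In 35 of 173 pairs the antisense RNA was above its sense gene per kilobase.

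**Figure D1:**
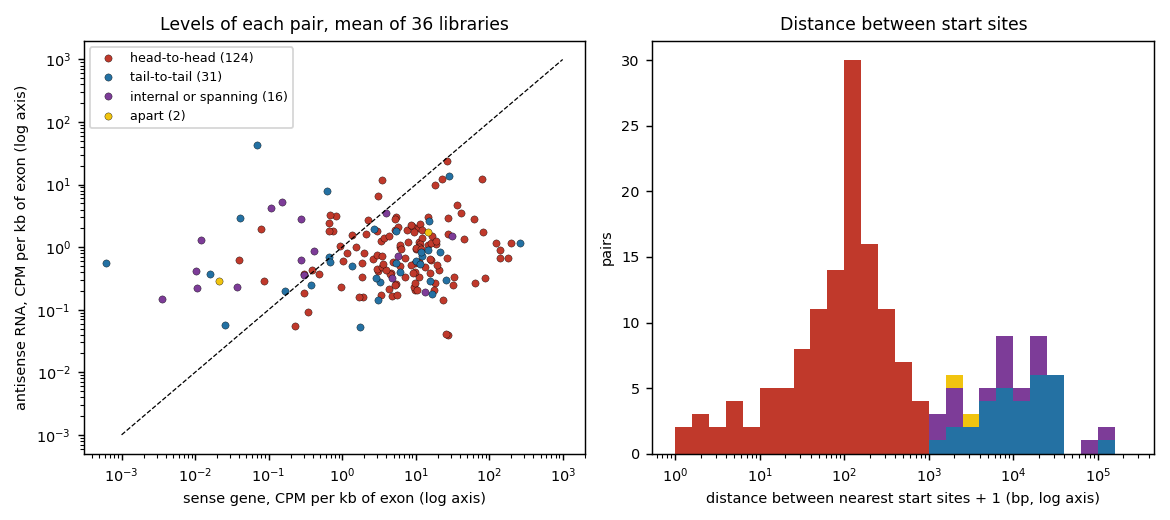
Left, mean level over 36 libraries of each antisense RNA against its sense gene, in CPM per kilobase of exon on log axes, 1 point per pair, with the dashed line where both are equal; 35 of 173 points lie above it. Right, pairs by distance between the nearest start sites (bp, 1 added, log axis), coloured by position class as on the left; the 124 head-to-head pairs end at 1000 bp.

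By counts, the most abundant member was FGD5-AS1, at a mean of 285 ± 11.4 CPM in ctrl-KO and 245 ± 6.26 in ctrl-OE (SD, n = 6), which runs tail-to-tail with FGD5, a guanine nucleotide exchange factor for Cdc42. FGD5 itself was at 0.151 ± 0.0763 CPM in ctrl-KO, and per kilobase of exon the mean over all libraries was 42.9 CPM per kb for FGD5-AS1 and 0.0698 for FGD5. TP73-AS1 (83.9 ± 3.83 CPM in ctrl-KO) also stood above its sense gene, the p53 relative TP73, with means over all libraries of 7.98 and 0.624 CPM per kb. OIP5-AS1 was at 61.9 ± 0.975 CPM in ctrl-KO and ran at the 3′ end of OIP5, a centromere factor. MAGI2-AS3 was at 57.2 ± 3.13 CPM in ctrl-KO, with its nearest annotated start site 5 bp from one of the synaptic scaffold gene MAGI2. BAIAP2-AS1, beside the actin regulator BAIAP2, was at 49.3 ± 3.67 CPM and WAC-AS1, beside the chromatin adaptor WAC, at 30.4 ± 1.60 CPM in ctrl-KO. These 6 did not pass an adjusted p of 0.05 in MEIS1-OE, MEIS2-OE or MEIS1-KO, and FGD5-AS1 was the only one of them to pass in MEIS2-KO.

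Sequences upstream of the antisense RNAs are shown where the 2 genes of a pair share them. In the RefSeq table (GRCh38.p14), which gives windows of 300 bases around start sites, the greater part upstream, 144 members had 190 windows. For 132 pairs both genes had a window, and in 60 of these the windows overlapped. The 5 antisense RNAs below passed the test in MEIS1-OE and have a window that overlaps that of the sense gene. ATP6V0E2-AS1 changed together with its sense gene and BOLA3-AS1, DYNLL1-AS1 and EIF3J-AS1, which rose, and RBM26-AS1, which fell, changed where the sense gene did not pass. Each window is printed 5′ to 3′ on the strand of the antisense RNA, and capitals mark the bases that also belong to the window of the sense gene on the other strand, 206 bases for ATP6V0E2-AS1 (chr7:149873813-149874112, minus strand), 168 for BOLA3-AS1 (RefSeq BOLA3-DT, chr2:74147731-74148030, plus strand), 266 for DYNLL1-AS1 (RefSeq NRAV, chr12:120495897-120496196, minus strand), 277 for EIF3J-AS1 (RefSeq EIF3J-DT, chr15:44536874-44537173, minus strand) and 153 for RBM26-AS1 (chr13:79406059-79406358, plus strand).
ATP6V0E2-AS1: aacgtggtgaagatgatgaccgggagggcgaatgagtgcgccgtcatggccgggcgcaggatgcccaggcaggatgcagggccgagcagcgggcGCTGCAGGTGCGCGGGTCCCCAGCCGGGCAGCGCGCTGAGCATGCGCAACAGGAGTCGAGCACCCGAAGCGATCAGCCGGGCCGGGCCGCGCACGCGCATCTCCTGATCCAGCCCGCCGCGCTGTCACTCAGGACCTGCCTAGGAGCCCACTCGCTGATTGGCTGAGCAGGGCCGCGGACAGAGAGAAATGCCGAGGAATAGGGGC
BOLA3-AS1: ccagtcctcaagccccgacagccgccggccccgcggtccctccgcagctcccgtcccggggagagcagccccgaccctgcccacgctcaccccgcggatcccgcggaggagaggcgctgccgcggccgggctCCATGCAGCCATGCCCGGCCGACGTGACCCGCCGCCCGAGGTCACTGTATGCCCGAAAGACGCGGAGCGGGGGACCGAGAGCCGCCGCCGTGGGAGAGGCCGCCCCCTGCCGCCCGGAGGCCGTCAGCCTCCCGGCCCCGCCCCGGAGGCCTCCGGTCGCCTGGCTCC
DYNLL1-AS1: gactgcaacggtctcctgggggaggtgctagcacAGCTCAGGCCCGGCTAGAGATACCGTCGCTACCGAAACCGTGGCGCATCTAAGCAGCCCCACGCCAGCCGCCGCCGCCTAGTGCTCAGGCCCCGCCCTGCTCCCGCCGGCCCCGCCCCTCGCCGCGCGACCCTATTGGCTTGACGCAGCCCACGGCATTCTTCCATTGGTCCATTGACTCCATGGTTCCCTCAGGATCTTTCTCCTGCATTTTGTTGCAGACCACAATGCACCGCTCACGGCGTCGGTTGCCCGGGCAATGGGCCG
EIF3J-AS1: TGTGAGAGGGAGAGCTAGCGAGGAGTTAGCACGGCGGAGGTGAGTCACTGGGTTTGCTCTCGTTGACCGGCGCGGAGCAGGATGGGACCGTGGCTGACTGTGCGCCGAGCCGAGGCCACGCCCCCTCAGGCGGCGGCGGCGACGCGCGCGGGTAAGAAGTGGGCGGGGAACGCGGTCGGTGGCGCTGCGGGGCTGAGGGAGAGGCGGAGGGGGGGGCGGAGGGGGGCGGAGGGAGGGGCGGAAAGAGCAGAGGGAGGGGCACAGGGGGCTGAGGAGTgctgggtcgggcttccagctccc
RBM26-AS1: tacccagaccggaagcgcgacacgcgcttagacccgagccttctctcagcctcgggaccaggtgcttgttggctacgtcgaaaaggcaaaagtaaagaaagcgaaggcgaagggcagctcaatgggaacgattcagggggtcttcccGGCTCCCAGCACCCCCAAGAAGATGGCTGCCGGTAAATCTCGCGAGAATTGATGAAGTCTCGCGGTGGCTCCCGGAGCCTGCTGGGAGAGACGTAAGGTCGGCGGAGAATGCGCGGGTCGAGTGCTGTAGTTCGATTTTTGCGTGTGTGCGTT
The letters TGACAG, the core of the MEIS consensus, were searched on both strands. They occurred in 22 of the members' 190 windows (11.6%) and in 15.8% of all 35116 windows of the table. The window of ATP6V0E2-AS1 held 1 match, within the capitals, and those of the other 4 held 0. TATAAA occurred in 6.32% of the members' windows (11.5% of all) and CCAAT in 30.0% (34.6% of all), and the median GC content was 65.0% (58.7% over all windows).

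The question of the 4 comparisons of MEIS groups with their controls was which transcripts moved with MEIS1 or MEIS2. Few antisense RNAs did. A gene passed at an adjusted p under 0.05 over all 19689 genes tested and was called when its absolute log2(fold change) was in addition above 0.58. In MEIS1-OE 11 of 178 members passed, 9 up and 2 down, or 6.18% against 9.1% of all tested genes, and 3 were called, all up (2.84% of all tested genes were called). In MEIS2-OE 1 member passed and was called, where 1.35% of all genes passed and 0.498% were called. In MEIS1-KO 0 members passed by edgeR, with 11 at an unadjusted p under 0.05, and 1 passed by DESeq2, where 1.46% of all genes passed and 0.29% were called. In MEIS2-KO 9 passed, 2 up and 7 down, and 0 were called, with 29 at an unadjusted p under 0.05 and 0 called by DESeq2 (10.0% of all genes passed and 1.58% were called). The passed share of members was below that of all genes in each of the 4, while the called share in MEIS2-OE was 0.562%. Among all 14508 genes with at least 360 counts, the floor that the members also met, 11.2% passed in MEIS1-OE, 1.69% in MEIS2-OE, 1.94% in MEIS1-KO and 13.2% in MEIS2-KO. Sharing a floor does not match the level. The mean CPM had a median of 2.83 for members and 10.6 for all tested genes, and changes are harder to detect at low counts. The part of the level in the members' lower passed share was not tested. The number of members that passed moved with the fit: in MEIS1-OE 6 passed in a fit of the compared groups alone, and in MEIS2-KO 2 passed without replicate 4, 3 without replicate 2 or 5 and 5 without replicate 1. Over the 4 comparisons 158 members passed in none, 19 in 1, and DLGAP1-AS1 in 2. The 2 OE comparisons share ctrl-OE and the 2 KO comparisons share ctrl-KO.

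**Figure D2:**
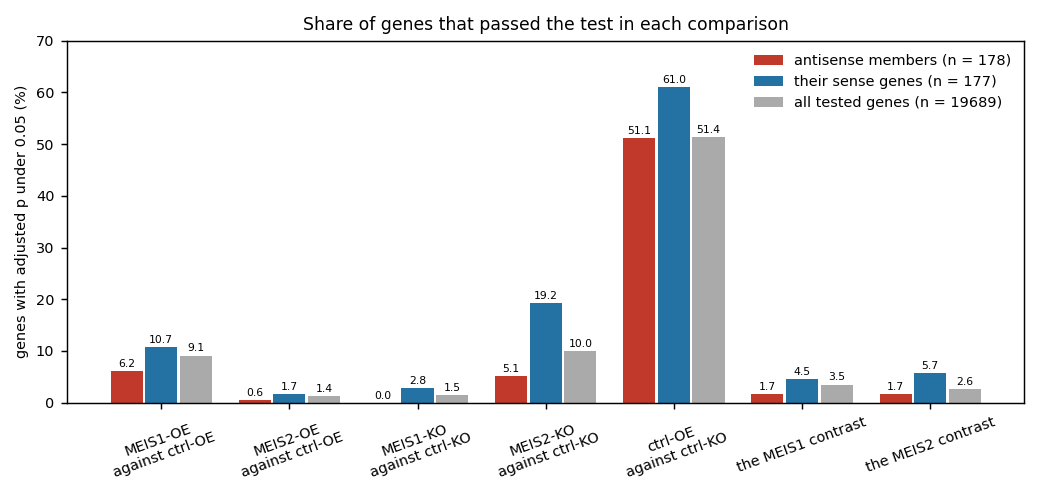
Percent of genes with an adjusted p under 0.05 in each of 7 comparisons, for the 178 antisense members, the 177 sense genes that were tested and all 19689 tested genes. The members' bar is below that of all genes in every comparison, by the least in ctrl-OE against ctrl-KO (51.1% and 51.4%).

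In MEIS1-OE, RAMP2-AS1 rose with its sense gene RAMP2, which encodes an accessory protein of the adrenomedullin receptor. RAMP2-AS1 lies on chr17:40905932-40913275 (minus strand, GRCh37), head-to-head with RAMP2 at 1 bp between the nearest annotated start sites. It was at 4.69, 5.75 and 6.41 CPM (lowest, median and highest library) in ctrl-OE and at 10.2, 10.8 and 11.4 in MEIS1-OE. The groups did not overlap, while MEIS2-OE, at 5.23 to 6.75 CPM, overlapped the control. The log2(fold change) was 0.90 ± 0.10 (SE, adjusted p = 2.5e-09), and that of RAMP2 was 0.82 ± 0.08 (adjusted p = 1.85e-10). The ratio of antisense to sense rose by 0.10 on the log2 scale, which was within the spread of the libraries (exact permutation test, two-sided, p = 0.39). In MEIS1-KO the log2(fold change) was 0.06 ± 0.11 (adjusted p = 0.92), and the difference between the OE and the KO effect, the MEIS1 contrast, was 0.84 ± 0.15 (adjusted p = 0.000187).

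ATP6V0E2-AS1 was a further antisense RNA that rose with its sense gene in MEIS1-OE. ATP6V0E2 encodes a subunit of the vacuolar proton pump. The antisense RNA was at 4.34, 5.33 and 6.001 CPM in ctrl-OE and at 6.10, 6.95 and 8.49 in MEIS1-OE, with no overlap. It rose by 0.45 ± 0.10 on the log2 scale (adjusted p = 0.0023) and ATP6V0E2 by 0.53 ± 0.11 (adjusted p = 0.000904). In MEIS1-KO it was -0.19 ± 0.10 (adjusted p = 0.50), and the MEIS1 contrast was 0.64 ± 0.15 (adjusted p = 0.00518). Without replicate 4 or replicate 5 of each group that contrast was 0.45 (adjusted p = 0.146) and 0.56 (adjusted p = 0.0725). Of this pair 26.3% of the antisense exon bases lie under sense exons.

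ZNF503-AS2 and FRMD6-AS1 were called in MEIS1-OE without a call of the sense gene. ZNF503 is a zinc finger repressor of developing striatum and FRMD6 a FERM protein of the Hippo pathway. ZNF503-AS2 was at 0.703, 1.10 and 1.41 CPM in ctrl-OE and at 1.11, 1.99 and 2.25 in MEIS1-OE. The lowest MEIS1-OE library lay inside the control range. It rose by 0.80 ± 0.17 (adjusted p = 0.0007), where ZNF503 was at 0.53 ± 0.21 (adjusted p = 0.13), and the ratio of the pair moved by 0.29 (exact permutation test, p = 0.361). FRMD6-AS1 was not matched to a position in the GENCODE annotation. It was at 1.12, 1.73 and 2.81 CPM in ctrl-OE and 2.23, 2.99 and 3.47 in MEIS1-OE, ranges that overlap. It rose by 0.72 ± 0.16 (adjusted p = 0.00223), FRMD6 was at 0.03 ± 0.05 (adjusted p = 0.85), and the ratio rose by 0.72 (exact permutation test, p = 0.0152, and p = 0.0625 with the replicate block). The MEIS1 contrast of ZNF503-AS2 was 0.88 ± 0.26 (adjusted p = 0.0454), and it did not pass under 10 of its alternatives, among them the fits without replicate 1, 4, 5 or 6, with adjusted p between 0.0224 and 0.257 over all of them.

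Of the other 7 members that passed in MEIS1-OE, 5 rose and 2 fell. BOLA3-AS1, beside a gene of mitochondrial iron-sulphur cluster assembly, was at 10.9, 11.6 and 12.6 CPM in ctrl-OE and 13.8, 14.4 and 16.1 in MEIS1-OE. The groups did not overlap, and the log2(fold change) was 0.33 ± 0.08 (adjusted p = 0.0031) against -0.07 ± 0.07 (adjusted p = 0.64) for BOLA3. DYNLL1-AS1 rose by 0.37 ± 0.09 (adjusted p = 0.0043), where DYNLL1, a dynein light chain, was at -0.11 ± 0.04 (adjusted p = 0.082). In both pairs every library of MEIS1-OE had a higher ratio of antisense to sense than every ctrl-OE library, with differences of 0.39 and 0.49 (exact permutation tests, p = 0.00216 each, the smallest that 924 splits allow). EIF3J-AS1, beside a translation initiation factor gene, rose by 0.20 ± 0.06 (adjusted p = 0.0368) and DLGAP1-AS1, inside a postsynaptic scaffold gene, by 0.29 ± 0.09 (adjusted p = 0.0348).

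TNRC6C-AS1 was the only member in the 4 MEIS comparisons that passed in the direction opposite to a sense gene that also passed. In MEIS1-OE it rose by 0.44 ± 0.13 (adjusted p = 0.0277), and TNRC6C, of the miRNA silencing complex, fell by 0.29 ± 0.08 on the log2 scale (adjusted p = 0.0133). C1RL-AS1, with 5 bp between its nearest annotated start site and one of the complement protease gene C1RL, fell. It was at 5.77, 6.91 and 8.41 CPM in ctrl-OE and 4.64, 4.99 and 5.31 in MEIS1-OE, with no overlap. The log2(fold change) was -0.46 ± 0.09 (adjusted p = 0.000341) against -0.04 ± 0.06 (adjusted p = 0.79) for C1RL. RBM26-AS1, beside the RNA-binding protein gene RBM26, fell by 0.40 ± 0.13 on the log2 scale (adjusted p = 0.0459).

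In MEIS2-OE RASSF8-AS1 was the one member that passed. RASSF8 encodes a Ras association domain protein of cell junctions, and its antisense RNA lies on chr12:26089616-26112698 (minus strand, GRCh37), with 0 bp between the nearest start sites. RASSF8-AS1 was at 9.95, 10.9 and 12.3 CPM in ctrl-OE and 20.7, 21.8 and 25.4 in MEIS2-OE. All 6 MEIS2-OE libraries stood above each of the other 30, whose highest was 15.2 CPM in ctrl-KO. It rose by 1.02 ± 0.09 on the log2 scale (adjusted p = 3.86e-11), and RASSF8 rose by 1.60 ± 0.07 (adjusted p = 6.05e-21), from a median of 63.4 to 200 CPM. The antisense RNA rose by less than its sense gene, and the ratio fell by 0.58 on the log2 scale (exact permutation test, p = 0.00216). In MEIS1-OE it was at -0.03 ± 0.09 (adjusted p = 0.90) and in MEIS2-KO at -0.10 ± 0.09 (adjusted p = 0.55). The MEIS2 contrast was 1.13 ± 0.13 (adjusted p = 9.2e-08).

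**Figure D3:**
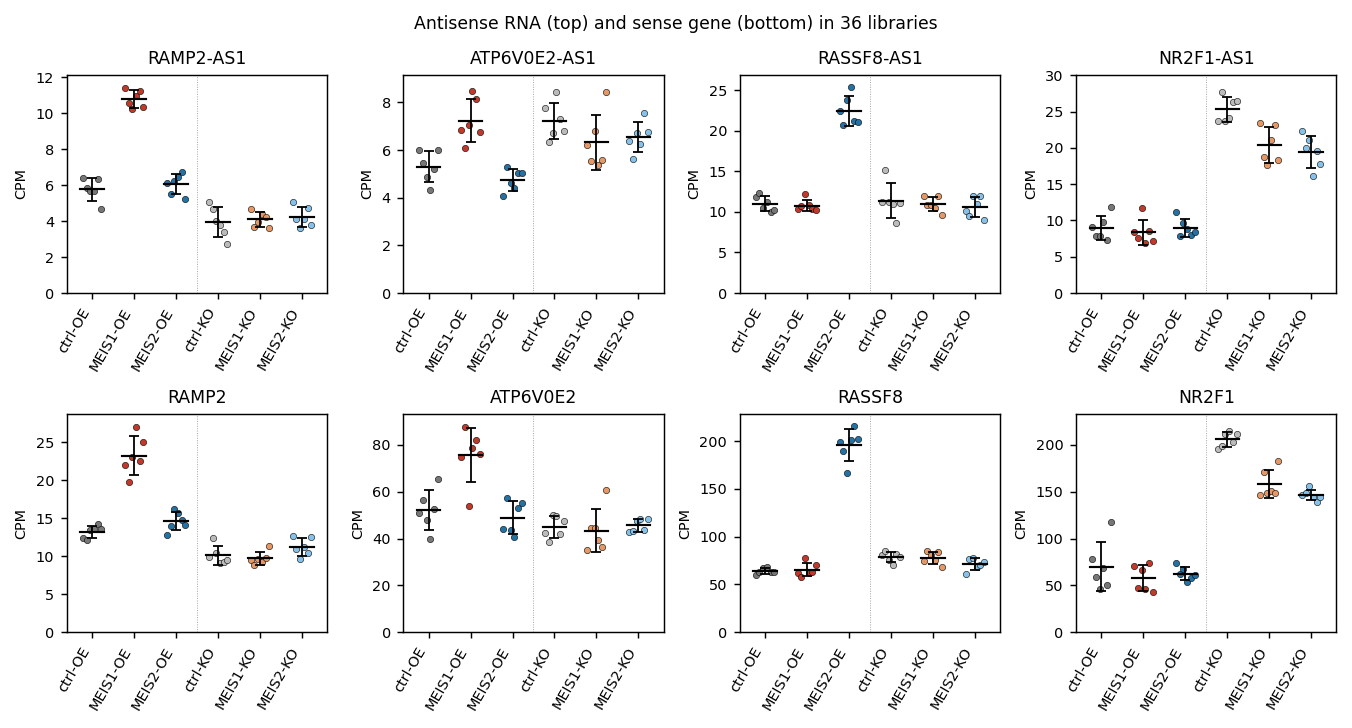
CPM in each of 36 libraries for 4 antisense RNAs (top) and their sense genes (bottom), by group; points are libraries, bars the mean and SD (n = 6), and each linear axis starts at 0. RAMP2-AS1 and ATP6V0E2-AS1 stand higher in MEIS1-OE than in ctrl-OE, RASSF8-AS1 in MEIS2-OE, and NR2F1-AS1 is lower in all OE groups than in the KO groups.

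The 2 contrasts of OE with KO effects called few members. In the MEIS1 contrast 3 members passed and were called, RAMP2-AS1, ATP6V0E2-AS1 and ZNF503-AS2, all up, where 3.48% of all genes passed and 1.41% were called. In the MEIS2 contrast 3 members passed, all up, and 1 was called, where 2.57% of all genes passed and 0.985% were called. Beside RASSF8-AS1 these were FGD5-AS1 (0.22 ± 0.06, adjusted p = 0.0173) and EIF3J-AS1 (0.32 ± 0.09, adjusted p = 0.0471).

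In MEIS2-KO the 9 antisense RNAs that passed moved by less than 0.58 on the log2 scale. NR2F1-AS1 and NR2F2-AS1 fell together with their sense genes, which encode COUP transcription factors, orphan nuclear receptors that pattern the forebrain. NR2F1-AS1 was at 23.7, 25.3 and 27.7 CPM in ctrl-KO and at 16.2, 19.8 and 22.3 in MEIS2-KO, with no overlap. It fell by 0.38 ± 0.11 on the log2 scale (adjusted p = 0.0164) and NR2F1 by 0.49 ± 0.14 (adjusted p = 0.0166). In MEIS1-KO it was at 17.7 to 23.4 CPM, also below every ctrl-KO library, with a log2(fold change) of -0.31 ± 0.11 (adjusted p = 0.15). Without replicate 2, 4 or 5 of each group the change in MEIS2-KO did not pass (adjusted p = 0.0689, 0.0732 and 0.0688). NR2F2-AS1 fell by 0.55 ± 0.17 on the log2 scale (adjusted p = 0.0281) and NR2F2 by 0.23 ± 0.07 (adjusted p = 0.0281).

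An intron of NR2F1-AS1 holds a predicted off-target site of one of the MEIS2 knockout guides, MEIS2-g5, and the pair is shown for that reason. The site is at chr5:92750397-92750419 (plus strand, GRCh37), 3182 bp from the nearest annotated exon of NR2F1-AS1. Both are printed 5′ to 3′ with the 3 bases of the PAM at the end in capitals, and in the site the bases that differ from the guide are in capitals too.
MEIS2-g5: gttctgatgtcaggataccaAGG
NR2F1-AS1 intron: gttctCCtgCcagAataccaTGG
The site differs from the guide at 4 positions, G6C, A7C, T10C and G14A, with the guide base first and positions counted from 1 at the 5′ end. The study examined its predicted off-target genes and named only SMOC1, KIAA1644 and RAPGEF3 as differing in expression from ctrl-KO. It does not give the threshold behind that statement, and NR2F1-AS1 passed here without being called. Cutting at the site was not measured in these data. The lower level in MEIS1-KO, whose guides are others, stands beside the lower level in MEIS2-KO, and the part of the site in it was not tested.

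The other members that passed in MEIS2-KO were mostly lower. FGD5-AS1 was at 274, 283 and 303 CPM in ctrl-KO and 242, 253 and 268 in MEIS2-KO, with no overlap, and fell by 0.17 ± 0.04 on the log2 scale (adjusted p = 0.0045). PAN3-AS1, beside a deadenylase subunit gene, fell by 0.39 ± 0.12 (adjusted p = 0.0262) and TMEM254-AS1 by 0.49 ± 0.15 (adjusted p = 0.0321), with TMEM254 also lower (-0.19 ± 0.05, adjusted p = 0.0202). FZD10-AS1, beside a Wnt receptor gene, fell by 0.20 ± 0.06 (adjusted p = 0.0302) and TTC28-AS1 by 0.18 ± 0.06 (adjusted p = 0.0407). NOP14-AS1, at the 3′ end of a gene for ribosomal RNA processing, rose by 0.30 ± 0.09 (adjusted p = 0.0383) and DLGAP1-AS1 by 0.33 ± 0.09 (adjusted p = 0.015). Of the sense genes of members 34 of 177 (19.2%) passed in MEIS2-KO, 26 of them down. Among all genes with at least 360 counts 13.2% passed, 748 up and 1167 down, so that a lean downward was not particular to these genes. Among the sense genes TP73 went up, at 6.90 to 8.42 CPM in MEIS2-KO against 3.88 to 4.71 in ctrl-KO. TP73-AS1 was at 0.07 ± 0.05 on the log2 scale (adjusted p = 0.41). The ratio of TP73-AS1 to TP73 fell by 0.69 on the log2 scale with no overlap (exact permutation test, p = 0.00216).

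The comparison of ctrl-OE with ctrl-KO, which differ in the CRISPR system and vectors and not in a MEIS guide, moved far more antisense RNAs. The delivered proteins, the number of viruses and any other difference between the 2 experiments cannot be told apart in it, and in bulk RNA fewer cells of a type and less RNA per cell cannot be told apart. Of 178 members 91 passed, 46 higher and 45 lower in ctrl-OE, against 51.4% of all genes, and 47 were called, 27 higher and 20 lower, against 22.1% of all genes. The members' shares were 51.1% passed and 26.4% called. Among all genes with at least 360 counts 61.7% passed and 21.9% were called, which is above the members' passed share and below their called share. The split rests on the scaling: with library totals alone, which moves the median log2(fold change) of all tested genes from 0.05 to 0.20, 37 members were called higher and 9 lower, and 16 of the 91 no longer passed, although 0 of them changed sign. The median log2(fold change) of members was 0.04, against 0.05 for all genes and -0.06 for the sense genes.

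Among the members higher in ctrl-OE, EIF3J-AS1 had the smallest p. It was at 11.4, 12.01 and 12.7 CPM in ctrl-KO and 17.7, 20.01 and 20.8 in ctrl-OE. It was 0.70 ± 0.06 higher on the log2 scale (adjusted p = 9.1e-12), EIF3J was 0.22 ± 0.06 higher (adjusted p = 0.0024), and the ratio differed by 0.47 (exact permutation test, p = 0.00216). ZBTB11-AS1, beside a zinc finger gene, was at 2.56, 3.02 and 3.26 CPM in ctrl-KO and 5.56, 6.12 and 6.84 in ctrl-OE. It was 1.05 ± 0.12 higher (adjusted p = 1.3e-09), with ZBTB11 at 0.15 ± 0.09 (adjusted p = 0.14). In both pairs the antisense RNA differed by more than the sense gene. The nearest annotated start sites are 79 and 77 bp apart, and the RefSeq window of ZBTB11-AS1 shared 0 bases with one of ZBTB11. TNRC6C-AS1 was 1.44 ± 0.15 higher (adjusted p = 3.23e-10) and NOP14-AS1 0.76 ± 0.09 (adjusted p = 4.81e-09), both beside a sense gene that was lower.

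Among the members lower in ctrl-OE were both antisense RNAs of the COUP factor genes. NR2F1-AS1 was at 23.7 to 27.7 CPM in ctrl-KO and at 7.35, 8.48 and 11.9 in ctrl-OE, a log2(fold change) of -1.50 ± 0.11 (adjusted p = 2e-14), next to -1.56 ± 0.14 (adjusted p = 3.9e-12) for NR2F1. NR2F2-AS1 was at 3.43, 4.27 and 5.03 CPM in ctrl-KO and 0.748, 1.29 and 2.06 in ctrl-OE, or -1.69 ± 0.18 (adjusted p = 4.5e-10), next to -1.12 ± 0.07 (adjusted p = 2.8e-16) for NR2F2. The 2 pairs moved in the same direction as their sense genes, and the ratio differed by 0.11 for NR2F1-AS1 (exact permutation test, p = 0.374) and by -0.64 for NR2F2-AS1 (p = 0.013, same exact test). FZD10-AS1 was at -0.71 ± 0.06 (adjusted p = 1.7e-12), with FZD10 at -0.43 ± 0.11 (adjusted p = 0.00073).

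Pairs moved in the same and in opposite directions. Of 177 pairs with a tested sense gene, both genes passed in 56, with the same sign in 36 and opposite signs in 20. In 15 of the 20 the antisense RNA was higher and the sense gene lower in ctrl-OE, and in 5 the reverse. Under RLE scaling 19 pairs were opposite, all among the 20, and with library totals alone 17, of which 12 were among them. By position, 13 of the 40 head-to-head pairs in which both passed were opposite, 5 of 10 tail-to-tail pairs and 1 of 4 internal or spanning pairs. Across the 177 pairs the correlation of the 2 log2(fold changes) was 0.21 (Pearson) and 0.26 (Spearman), as a description, since the pairs come from the same 12 libraries.

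**Figure D4:**
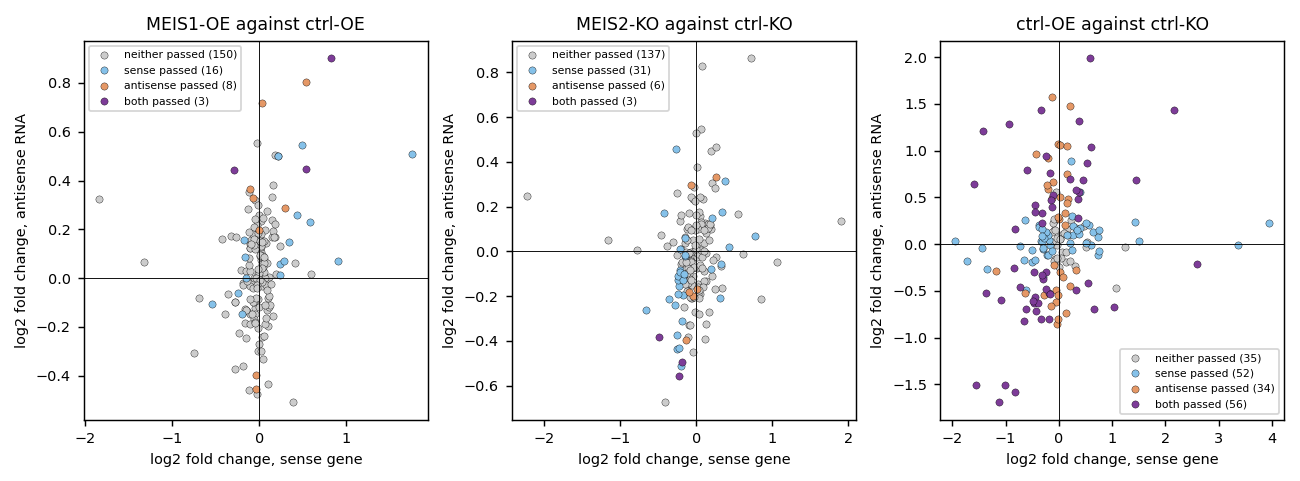
log2(fold change) of each antisense RNA against that of its sense gene, 177 pairs, in 3 comparisons; colours show which of the 2 genes had an adjusted p under 0.05. Both passed in 3 pairs in MEIS1-OE, 3 in MEIS2-KO and 56 in ctrl-OE against ctrl-KO, where 20 of the 56 lie in the quadrants of opposite sign.

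By the difference of the 2 log2(fold changes), the widest opposite pair was FGD5-AS1 and FGD5. FGD5 was at 0.0562 to 0.240 CPM in ctrl-KO and 0.492 to 1.44 in ctrl-OE, 2.598 ± 0.31 higher on the log2 scale (adjusted p = 3.52e-09), while FGD5-AS1 was -0.22 ± 0.04 (adjusted p = 1.15e-05). With library totals alone FGD5-AS1 was at -0.07 (adjusted p = 0.1575), so that its passing depends on the scaling. RGMB-AS1 was at 0.116, 0.375 and 0.524 CPM in ctrl-KO and 0.561, 0.759 and 0.976 in ctrl-OE, without overlap. It was 1.21 ± 0.27 higher (adjusted p = 0.000243), and RGMB, a coreceptor of bone morphogenetic proteins, was at -1.42 ± 0.07 (adjusted p = 4.75e-20), from a median of 341 to 125 CPM. A2M-AS1 was at 1.94, 2.64 and 3.21 CPM in ctrl-KO and 3.63, 4.12 and 4.35 in ctrl-OE, 0.64 ± 0.11 higher (adjusted p = 6.5e-06), where the protease inhibitor gene A2M was at -1.59 ± 0.05 (adjusted p = 1.61e-24).

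FGF13-AS1, FGF13 being an intracellular factor that binds sodium channels, was 1.28 ± 0.29 higher (adjusted p = 0.000286) and FGF13 at -0.93 ± 0.07 (adjusted p = 2.1e-14). MFI2-AS1 showed the reverse, at -0.67 ± 0.15 (adjusted p = 0.000219), where MFI2, the melanotransferrin gene, was 1.03 ± 0.22 higher (adjusted p = 0.000155). TRAF3IP2-AS1 was at -0.69 ± 0.07 (adjusted p = 1.4e-10) and TRAF3IP2, an adaptor of interleukin-17 signalling, 0.66 ± 0.08 higher (adjusted p = 2.18e-09). In each of these 6 pairs the ratio of antisense to sense did not overlap between ctrl-OE and ctrl-KO (exact permutation test, p = 0.00216 in each). TRAF3IP2-AS1 had 0 exon bases under exons of its sense gene, FGD5-AS1 176 of 6045 and MFI2-AS1 511 of 1139.

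**Figure D5:**
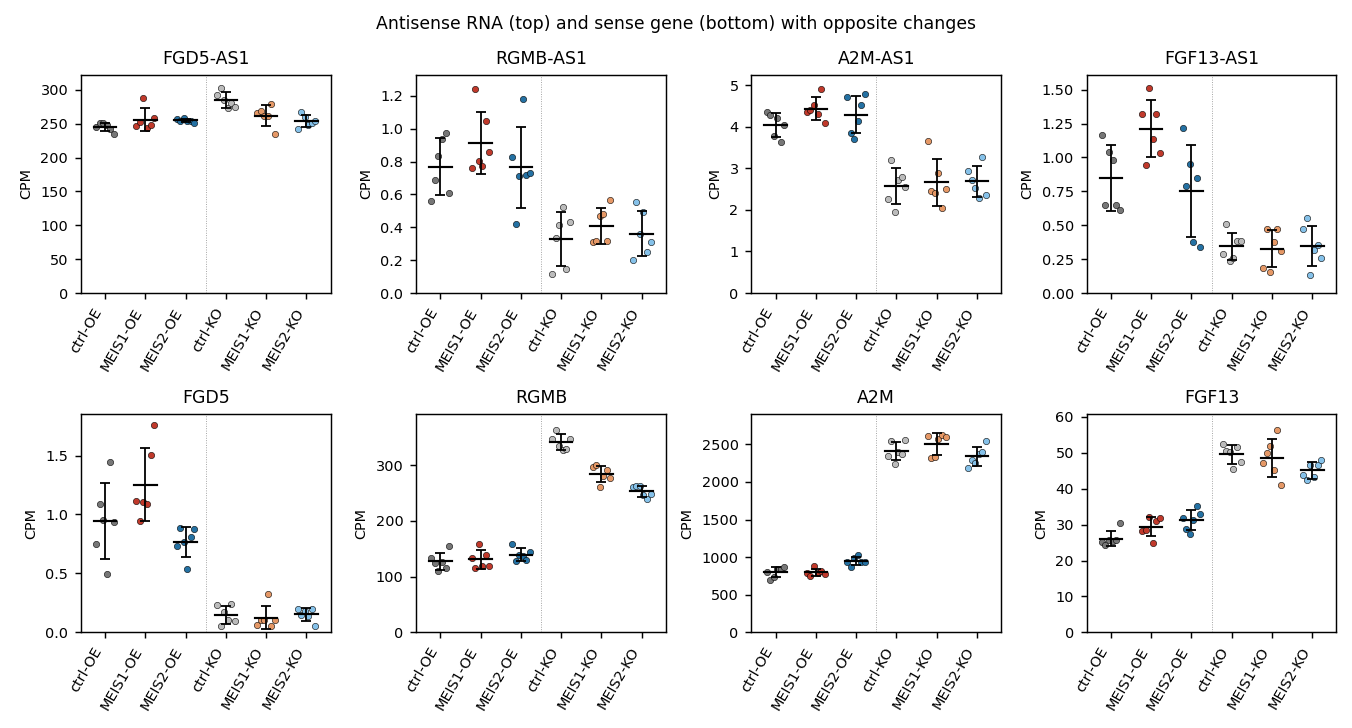
CPM in each of 36 libraries for 4 antisense RNAs (top) and their sense genes (bottom) whose changes between ctrl-OE and ctrl-KO had opposite signs; points are libraries, bars the mean and SD (n = 6), and each linear axis starts at 0. RGMB-AS1, A2M-AS1 and FGF13-AS1 are higher and RGMB, A2M and FGF13 lower in ctrl-OE than in ctrl-KO, and FGD5-AS1 and FGD5 the reverse.

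A sense gene could also move alone. MAGI2 was at 43.3, 46.8 and 51.7 CPM in ctrl-KO and 10.5, 12.1 and 14.5 in ctrl-OE, or -1.94 ± 0.07 (adjusted p = 8.7e-23). MAGI2-AS3, with its nearest annotated start site 5 bp away, was at 51.7 to 60.1 CPM in ctrl-KO and 57.1 to 61.8 in ctrl-OE, or 0.04 ± 0.07 (adjusted p = 0.66). The ratio differed by 1.98 (exact permutation test, p = 0.00216). The ratio was tested 885 times, for 177 pairs in 5 comparisons, and no p was adjusted over these tests. An unadjusted p under 0.05 was found for 21 pairs in MEIS1-OE (11.9%), 13 in MEIS2-OE (7.3%) and 11 in MEIS1-KO (6.2%). It was found for 21 in MEIS2-KO (11.9%) and 86 in ctrl-OE against ctrl-KO (48.6%). By chance alone a fraction of about 0.05 of the pairs would be found in each. Of these pairs 7, 1, 2, 3 and 45 were at the smallest possible p.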

How the data were processed

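Poly-A RNA was sequenced from 36 libraries of hNSC (6 groups of 6, grouped by the labels). The authors deposited 1 table of raw read counts per gene symbol. For alignment to the hg19 genome the sources name STAR, as version 2.4.2a in the design text and as 2.7.0a, beside Trimmomatic 0.39, in the submitters' processing notes, and for counting HTSeq 0.6.0. The annotation and the strand setting of the counting are not given in the sources used here.

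From these counts, 19689 of 28516 symbols with at least 10 counts were tested with edgeR 4.0.16 (R 4.3.3), by the quasi-likelihood F test with TMM factors in 1 fit over all 36 libraries, with Benjamini-Hochberg adjustment over all tested genes. CPM values use the TMM factors. On simulated data for MEIS1-OE against ctrl-OE, run on 19501 genes, 196 of 200 changed genes (log2 change of 1) were recovered with 2 false calls. The changed genes were drawn from those with a mean above 1 CPM. Members went down to 0.482 CPM, so that recovery of the weakest was not simulated. Differences of the log2 ratio of antisense to sense were tested with exact two-sided permutation tests over libraries (numpy 2.4.6). Spearman correlations were computed with scipy 1.17.1. The members and lists were chosen with earlier results of these data known. Named genes are the members with most counts, those called with the smallest p in each comparison and direction, pairs of opposite sign, those beside the count threshold, and antisense RNAs of MEIS1, MEIS2 and NR2F1. All other members named were chosen after their values were seen. Alternatives were RLE scaling, DESeq2 1.42.0, other filters, a replicate block, fits of the compared groups alone and leaving out replicates, and scaling by library totals, which was added after seeing the data. Same-numbered libraries deviated together in 46 of 90 pairs (correlation above 0.1, mean 0.0994) and libraries with other numbers in 143 of 450 (mean -0.0210). Same-numbered libraries were thus more alike on average, and these values cannot decide whether the numbers mark a shared batch. The main fit did not pair libraries by number. With a replicate block 15 members passed in MEIS1-OE (11 without it), 10 in MEIS2-KO (9) and 4 in the MEIS2 contrast (3). The other comparisons kept their number.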

Additional observations from a re-analysis of the deposited data

Results flagged for a closer look

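Among 150 groups of 6 libraries, 5 held 1 library that stood apart by Dixon's test, where chance gives about 1 in 20 groups. In MEIS1-OE replicate 3, FGD5-AS1 was at 289 CPM, RASSF8-AS1 at 12.2 CPM and NR2F1-AS1 at 11.7 CPM, each the highest of its group. NR2F2-AS1 was highest in MEIS1-OE replicate 5, at 1.64 CPM. NOP14-AS1 was lowest in MEIS2-KO replicate 6, at 5.50 CPM.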

How the results depend on the processing

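For 22 named log2(fold changes) 308 alternative values were computed. Of these, 292 kept their direction and side of the adjusted p threshold, 16 no longer passed and 0 reversed. The fold threshold of a call was not part of this count. With no fold threshold the called members numbered 11 in MEIS1-OE, 9 in MEIS2-KO, 91 in ctrl-OE against ctrl-KO and 3 in the MEIS2 contrast. Leaving out 1 replicate gave 3 to 5 called members in MEIS1-OE (5 without replicate 3), 0 to 4 in MEIS2-KO (4 without replicate 3, 1 without replicate 6) and 1 to 3 in the MEIS1 contrast (1 without replicate 4 or 5). When 1 replicate was left out, 8 to 15 members passed in MEIS1-OE, 2 to 8 in MEIS2-KO, 2 to 5 in the MEIS1 contrast (5 without replicate 3) and 1 to 3 in the MEIS2 contrast (1 without replicate 1 or 2). In the MEIS1 contrast 6 passed with the filterByExpr filter, and in the MEIS2 contrast 1 with library totals alone. With the replicate block 2 members were called in the MEIS1 contrast, and the ratio of FRMD6-AS1 to FRMD6 in MEIS1-OE, at 0.72, had p = 0.0625 in the paired exact sign-flip test, whose smallest p is 0.0312. The cause of these changes was not tested. Detection of changes below 1 on the log2 scale was not simulated. The unknown strand setting limits pairs with overlapping exons.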

Other observations

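Below the count threshold lay the antisense RNA of the activated gene itself. MEIS1-AS3 had 120 counts in all, with 10 to 19 counts a library in MEIS1-OE, 0 to 1 in ctrl-OE, 1 to 3 in MEIS1-KO and 0 to 2 in ctrl-KO (MEIS1-OE against ctrl-OE, adjusted p = 7.74e-12). C1QTNF1-AS1 had 0 counts in every ctrl-OE library and 4 to 11 in those of MEIS1-OE. It also had 0 in every ctrl-KO, MEIS1-KO and MEIS2-KO library and 0 to 1 in MEIS2-OE. It met the floor of 10 counts only through MEIS1-OE, so that its test there carries no weight, although it is among the 5 counted as called higher below. Of the 141 candidates with at least 10 and under 360 counts, 5 were called higher and 1 lower in MEIS1-OE, or 4.26% against 2.84% of all tested genes, of which 442 were called higher and 118 lower. JMJD1C-AS1, just outside the threshold, rose by 1.0001 ± 0.23 on the log2 scale (adjusted p = 0.00221), with JMJD1C at -0.05 (adjusted p = 0.858). These candidates were named after their values were seen.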
